A study of Gallus gallus with 16 samples.

Results

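The genes for the protein subunits of the mitochondrial ribosome were followed in the chicken pineal gland under light at night and across times of day. Members were all probes whose gene symbol in the array's probe annotation begins with MRPL or MRPS followed by a digit. This gave 37 probes for 30 genes, of 15609 probes and 12532 genes tested in all. Of the 15609 probes 5981 had no symbol. Each of these that passed the filter on missing values counts as a gene of its own, in every share of all genes. By symbol, 16 belong to the large subunit (MRPL3, 10, 13, 15, 16, 17, 19, 23, 24, 27, 28, 30, 37, 50, 53 and 58) and 14 to the small subunit (MRPS2, 6, 7, 9, 10, 11, 18C, 21, 25, 26, 27, 30, 31 and 36). All 30 passed the filter on missing values. A current chicken gene table lists 73 symbols of this form, of which 43 name no probe here. Whether probes without a symbol read any of these 43 was not tested.

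Mitochondrial ribosomes translate the few messenger RNAs that mitochondrial DNA encodes, all for subunits of the respiratory chain and the ATP synthase. Their ribosomal RNAs come from mitochondrial DNA as well, but every protein subunit is encoded in the nucleus, made in the cytosol and imported. Some subunits descend from those of bacterial ribosomes, while others occur only in mitochondria. Symbols do not always follow structure: in mammals MRPS30 sits in the large subunit, and MRPS36 is a subunit of the oxoglutarate dehydrogenase complex. The pineal gland makes melatonin at night, and in birds it is itself light-sensitive.

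All birds were male Rhode Island Red chicks, 1 week old, and each of the 16 arrays compared an RNA pool of 5 to 6 pineal glands with a reference that combined all 16 pools. In paradigm 1, chicks kept on 12 h of light and 12 h of dark were lit for 2 h before dawn, between ZT22 and ZT24 (ZT0 is lights-on), and they and dark controls were killed at ZT0, giving 4 pools each. In paradigm 2, chicks of the same cycle stayed lit for 2 h longer, between ZT12 and ZT14, and they and dark controls were killed at ZT14, giving 2 pools each. In paradigm 3, chicks raised on a long day were killed at ZT14 while their lights were still on, against controls of the 12 h cycle in the dark, giving 2 pools each. The labels disagree on the long day, with 15 h of light to 9 h of dark in the design text but 17 h to 7 h in the sample titles, and which applied is not settled here.

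Values are the deposited log ratios against the reference, taken as log2. The numerator is not stated, so a higher value means a higher ratio as deposited, and all signs turn together if the reference was on top. A ratio to a pineal reference shows differences between pools, not the level of a gene nor whether it is expressed, and levels of different genes cannot be set against each other. The arrays of paradigm 3 stood apart. The SD of the ratios over probes was 0.82 to 1.08 on its 4 arrays. Paradigm 2 arrays had SDs from 0.391 to 0.51, and paradigm 1 arrays from 0.248 to 0.546. Correlations between arrays over probes ran from -0.29 to 0.6. A gene was called where limma gave a Benjamini-Hochberg adjusted p, taken over all 12532 genes, under 0.05; errors with ± are limma's standard errors. The spread was estimated from all 16 arrays, so for paradigm 3 alone it averages in arrays that vary less.

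The median ratio over the 30 genes was slightly higher at the end of the night than in the early night. In the 8 pools taken at ZT0, the members' median ran from -0.0024 to 0.103, and in the 8 pools at ZT14 from -0.258 to -0.0478. These ranges did not overlap, though each group of pools was read on different arrays of different paradigms. Median ratios of all genes ran from -0.0068 to 0.0134 at ZT0 and from -0.0412 to 0.0651 at ZT14. By subunit, the large-subunit medians ran from -0.0479 to 0.129 at ZT0 and from -0.21 to -0.00704 at ZT14, and the small-subunit medians from -0.0367 to 0.125 and from -0.331 to -0.0079, with overlap between the times in each subunit. The lowest small-subunit median, -0.331, was that of both dark pools of paradigm 3. In bulk tissue, a smaller share of cells that carry an RNA and less of that RNA per cell cannot be told apart.

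**Figure D1:**
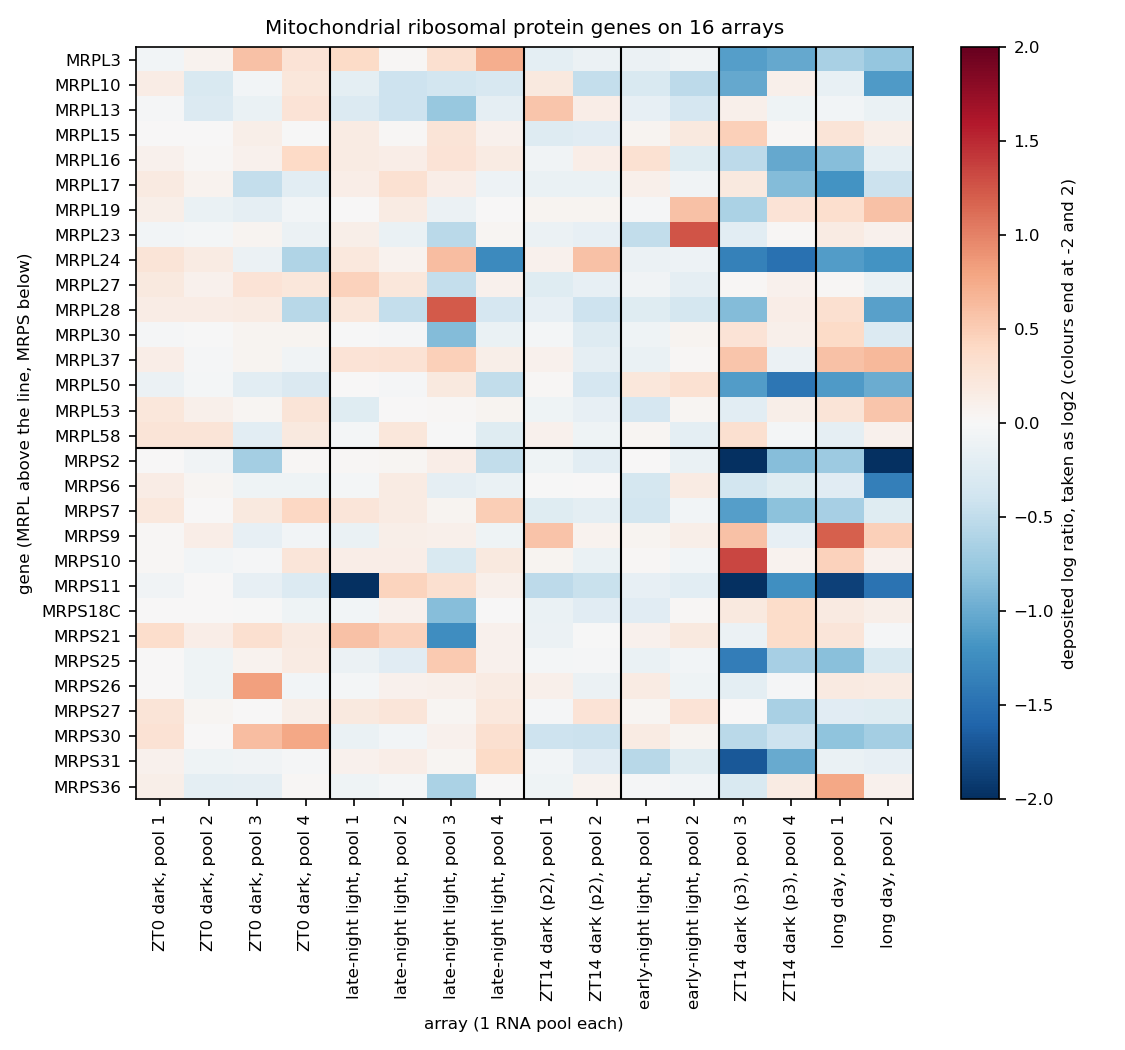
Deposited log ratio (taken as log2, colour) of each of the 30 genes (rows, MRPL above the line and MRPS below) on each of the 16 arrays (columns, 1 RNA pool each, grouped by condition). The lowest values are those of MRPS11 at -3.39 and MRPS2 at -2.54 on a dark pool of paradigm 3 and of MRPS11 at -3.04 on a late-night light pool of paradigm 1.

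**Figure D2:**
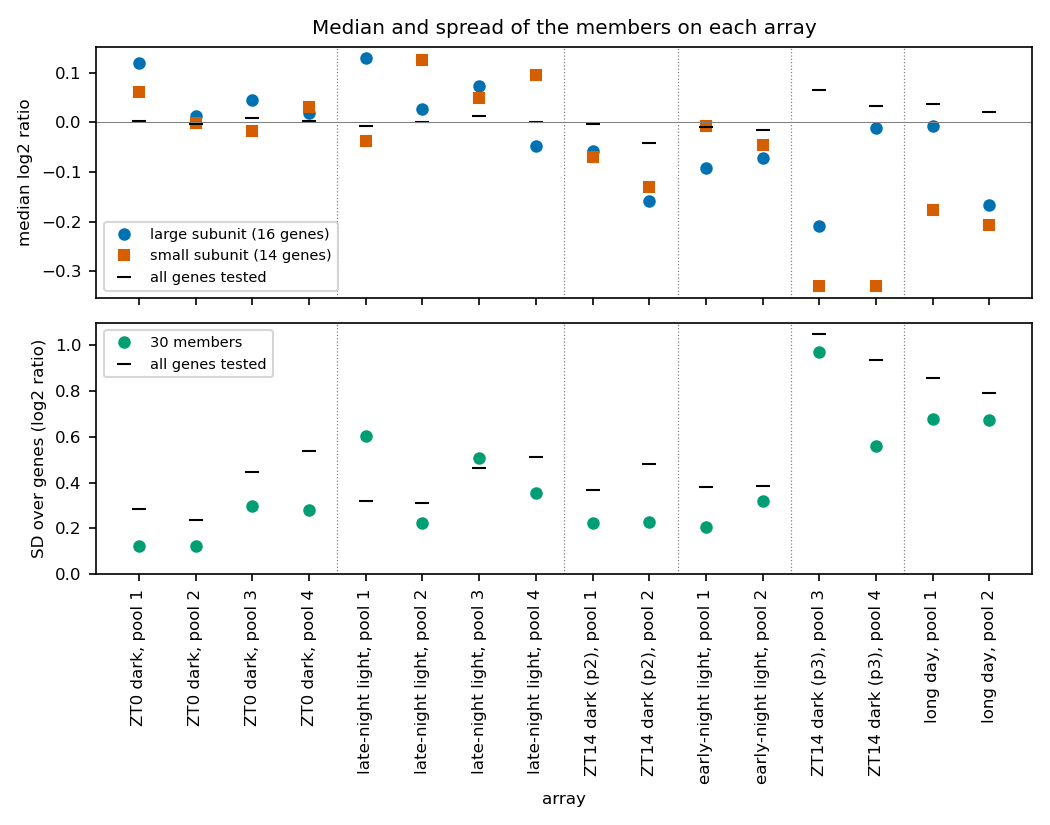
Upper panel: median log2 ratio of the 16 large-subunit and 14 small-subunit genes and of all genes tested, on each array. Lower panel: SD over genes on each array for the 30 members and for all genes, which for the members runs from 0.122 to 0.602 in paradigm 1, from 0.207 to 0.321 in paradigm 2 and from 0.561 to 0.969 in paradigm 3.

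Single members reached ratios far from 0. MRPS11, of the platform of the small subunit in bacteria, had the lowest mean of all members in 4 of the 6 groups: its ratios were -1.86 and -1.48 in the long-day pools, -3.39 and -1.22 in their dark controls, and -0.52 and -0.45 in the dark controls of paradigm 2. In the late-night light pools MRPS11 stood at -3.04, 0.45, 0.32 and 0.10, so that 1 pool set its mean there. The highest group means belonged to different genes: MRPS9, of the small subunit's head, in the long day (1.20 and 0.48), MRPS10 in the paradigm 3 dark controls (1.34 and 0.07) and MRPL13 in the paradigm 2 dark controls (0.56 and 0.14). Among the early-night light pools MRPL23, which lies at the exit of the peptide tunnel, ranked first with ratios of -0.50 and 1.25, and MRPL10, of the base of the stalk that receives translation factors, ranked last with -0.30 and -0.52. At ZT0 in darkness MRPS30 ranked first, and MRPS2 ranked last with 0.00, -0.07, -0.68 and 0.03. For MRPS10, MRPL23 and MRPS2 the extreme mean came from a single pool.

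Late-night light, given just before dawn, moved no mitochondrial ribosomal protein gene past the threshold. Of the 30 genes 0 were called, as for all genes (0 of 12532, 0.0%), and 2 members had an unadjusted p under 0.05, against 527 of all genes. Their median difference, light minus dark, was -0.0128, beside -0.00395 over all genes, with 14 genes above 0 and 16 below. It was 0.00943 for the large and -0.0298 for the small subunit. For 28 of the 30, the 95% interval of the difference lay within 1 log2 unit of 0. In 0 members did the 4 light pools lie wholly apart from the 4 dark pools, where 4.59% of all genes did. The array numbers fall into an earlier and a later series, and the later one held light pool 4 and dark pools 3 and 4. Within the earlier one the subunit medians were 0.0472 and -0.0294. There and with the series as a block 0 members were called. Since 0 of all genes were called with all pools, these counts do not test the series. With only light pool 4 in the later series, calls within it are not given.

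The smallest p-values after late-night light belonged to MRPL13 and MRPS30. MRPL13, a bacterial-type large-subunit protein, had ratios of -0.28, -0.42, -0.76 and -0.18 in light and -0.02, -0.27, -0.13 and 0.27 in darkness. Most light pools were lower, with overlap, and the difference was -0.37 ± 0.17 (limma adjusted p = 0.9997). MRPS30 had ratios of -0.13, -0.05, 0.09 and 0.32 in light and 0.29, 0.01, 0.61 and 0.77 in darkness. These ranges overlapped as well, and its difference was -0.36 ± 0.17. MRPL37, whose protein is related in sequence to MRPS30, had ratios of 0.28, 0.29, 0.47 and 0.12 in light and 0.13, -0.02, 0.05 and -0.07 in darkness. Its difference, 0.27 ± 0.15, had the opposite sign. The differences of MRPL53 and MRPL30 were -0.20 ± 0.14 and -0.27 ± 0.20, and that of MRPL30 was -0.07 without light pool 3.

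Early-night light, which extended the day by 2 h, likewise gave no call among the members. Of the 30 genes 0 were called with limma, beside 1 of all genes (0.00798%), and 2 had an unadjusted p under 0.05, against 526 of all genes. The members' median difference was 0.028, beside 0.000383 for all genes, with 17 above 0, and it was 0.0263 for the large and 0.028 for the small subunit. For 21 members the 95% interval lay within 1 log2 unit of 0. With 2 pools against 2, the groups did not overlap in 10 of the 30, while 35.2% of all genes met the same condition.

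MRPL13 and MRPS30 again had the smallest p-values. MRPL13 stood at -0.17 and -0.33 in early-night light and at 0.56 and 0.14 in darkness. Both light pools lay below both dark pools, and the difference was -0.60 ± 0.24 (limma adjusted p = 1.0). MRPS30 stood at 0.16 and 0.05 in light and at -0.41 and -0.43 in darkness. Here the light pools lay above the dark pools, by 0.52 ± 0.24, the opposite sign to late-night light. MRPL15 differed by 0.36 ± 0.18 and MRPL50 by 0.42 ± 0.23, each without overlap. MRPL23 differed by 0.51 ± 0.40, and its light pools lay on either side of both dark pools (-0.11 and -0.16): without the second light pool the difference was -0.37.

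In the long day, MRPS31, an animal small-subunit protein with no bacterial counterpart, had a higher ratio than in its dark controls and was the only one of the 30 called. That is 1 of 30 members beside 2.94% of all genes, or 369 of 12532, so the share of members called was close to the background. MRPS31 stood at -0.14 and -0.17 in the long-day pools and at -1.69 and -1.01 in the dark pools. Both long-day pools lay above both dark pools, and the difference of 1.19 ± 0.22 corresponds to 2.29-fold (limma adjusted p = 0.013). On the 12 arrays of the other paradigms MRPS31 lay between -0.55 and 0.38, a range that holds the long-day means but not the dark pools. The mean of long-day pool 1 joins probes at -1.09 and 0.82, each outside that probe's own range on those 12 arrays (-0.56 to 0.68 and -0.54 to 0.22). Leaving out any 1 of the 4 pools kept the call, with differences from 0.85 to 1.54. With the difference still at 1.19, the call was lost with array weights (limma adjusted p = 0.306) and when only these 4 arrays were fitted (adjusted p = 0.826). It was also lost after quantile normalization (difference 0.57, adjusted p = 0.9999) and with each array scaled to the same SD (adjusted p = 1.0).

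The remaining long-day differences did not pass the test. The members' median was 0.212, beside -0.00685 over all genes, with 17 above 0. It was 0.094 for the large and 0.268 for the small subunit, and -0.0193 and 0.268 when subunits were assigned by structure. The 20 members listed as having a bacterial ribosomal counterpart had a median of -0.0195, with 9 above 0. The 10 not on that list, MRPS36 (0.50) among them, had a median of 0.332, with 8 above 0. This split is a description and was not tested. Groups did not overlap in 11 of 30 members, 9 of them higher in the long day. Of all 12532 genes 4490 (35.8%) did not overlap, 2205 of them higher. For 17 members the 95% interval lay within 1 log2 unit of 0.

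Next by p-value came MRPL19, MRPS7, MRPL53 and MRPS9. MRPL19, at the interface of the subunits in bacteria, stood at 0.33 and 0.58 in the long day and at -0.63 and 0.27 in darkness, a difference of 0.64 ± 0.27 (limma adjusted p = 0.234). Its pools did not overlap, but 1 dark pool gave most of the difference, which was 0.19 without it. Without the other dark pool it was 1.09 and passed the threshold. MRPS7, which in bacteria organises the head of the small subunit, stood at -0.67 and -0.24 against -1.10 and -0.82, a difference of 0.51 ± 0.22 (limma adjusted p = 0.238). All 4 values were below 0. MRPL53 differed by 0.45 ± 0.20. MRPS9 differed by 0.63 ± 0.28 with overlapping pools, and with 1 pool left out by 0.25 to 1.01. Of the 4 pineal markers measured, NEUROD1 was called as lower in the long day (-1.67 ± 0.41, limma adjusted p = 0.0452). Of the 4 differences 2 lay above 0 and 2 below, from -1.67 to 0.18, with a median of 0.0449. The mean ratio of these 4 markers was -0.665 and -0.651 in the long-day pools and -0.523 and -0.0947 in darkness. Of 17 lymphoid, macrophage, erythroid and choroid plexus markers 0 were called by limma and 0 had an unadjusted p under 0.05, and the part of any marker in the members' values was not tested.

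**Figure D3:**
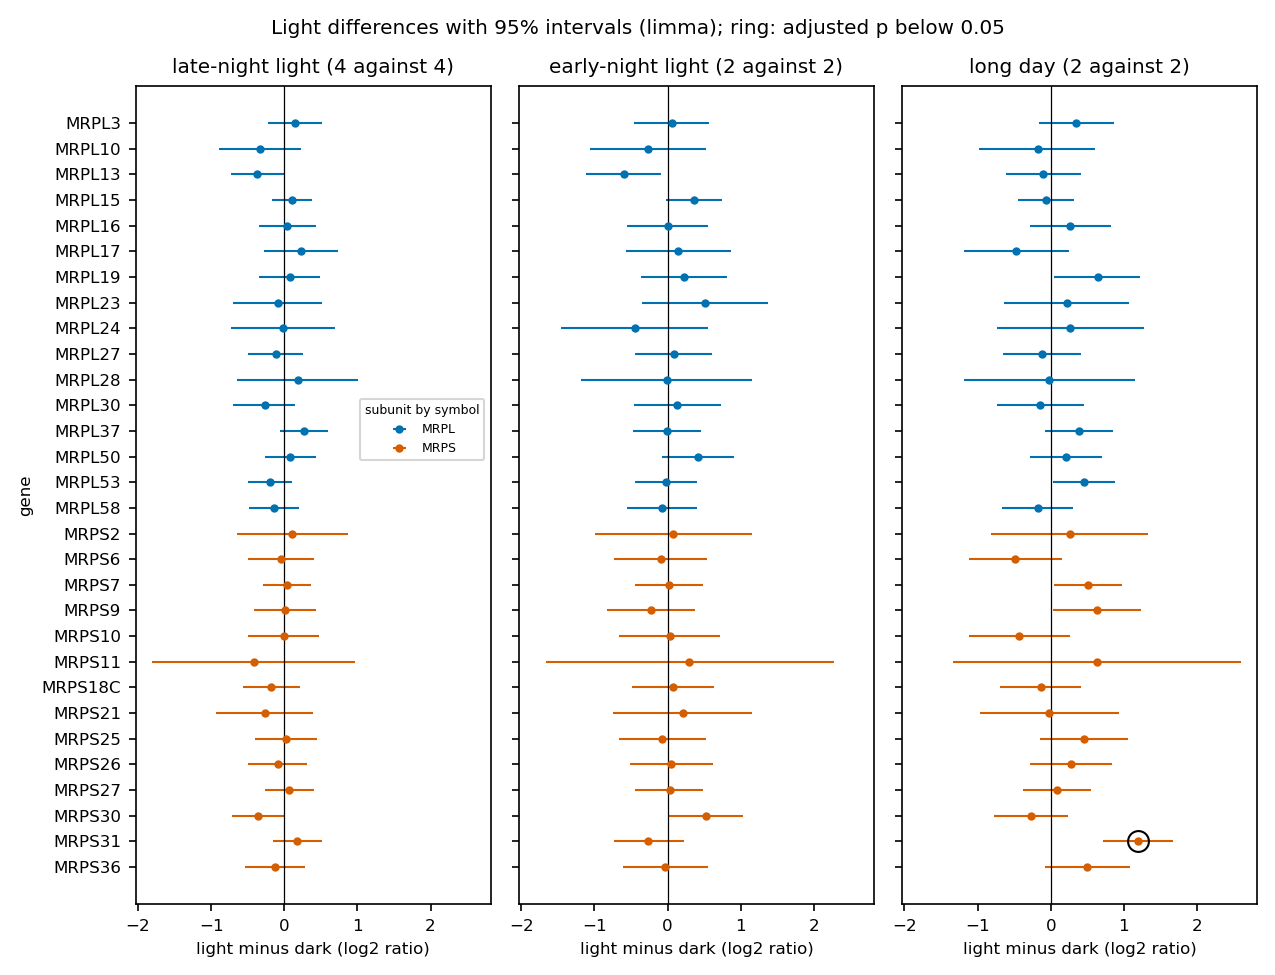
Light minus dark difference in log2 ratio for each of the 30 genes (points, with 95% intervals from limma) in the 3 light paradigms, coloured by subunit. A ring marks the single call, MRPS31 in the long day at 1.19; the late-night intervals are the shortest, since those groups hold 4 pools each.

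Averaged over both kinds of light at ZT14, 0 of the 30 members were called by limma, beside 0.295% of all genes, and 2 had an unadjusted p under 0.05, against 1538 of all genes. The median difference was 0.139, beside -0.00126 for all genes. The light effects were also set against each other. Late-night and early-night effects differed in 0 members (0.0399% of all genes were called). An unadjusted p under 0.05 was found for 516 of all genes and for 1 member. That was MRPS30, whose late-night effect minus early-night effect was -0.89 ± 0.29. Long-day and early-night effects differed in 0 members (0.0239% of all genes), with 3 unadjusted p-values under 0.05 against 1320 over all genes: MRPS31 by 1.45 ± 0.31 (limma adjusted p = 0.109), MRPS9 by 0.86 ± 0.40 and MRPS30 by -0.80 ± 0.33. In 10 of the 30 genes (33.3%) all 3 light differences had the same sign, as in 25.4% of all genes. The light effects share no sample, but all ratios share the reference.

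Between the end of the night and the early night in darkness, 5 members were called, all with higher ratios at ZT0: MRPS30, MRPS7, MRPL3, MRPS31 and MRPL50. They are 5 of 30, while 19.0% of all genes were called and 8.61% were called as higher at ZT0. ZT14 was taken as the mean of the dark controls of paradigms 2 and 3. Unadjusted p-values under 0.05 were found for 7 members and for 4101 of all genes. The members' median difference, ZT0 minus ZT14, was 0.221, with 23 above 0, beside -0.0268 for all genes, and it was 0.182 for the large and 0.221 for the small subunit. The ZT0 pools lay wholly apart from the ZT14 pools in 4 members (MRPL3, MRPS7, MRPS11 and MRPS30), as in 12.9% of all genes.

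MRPS30 stood at 0.29, 0.01, 0.61 and 0.77 at ZT0, at -0.41 and -0.43 in the dark controls of paradigm 2, and at -0.54 and -0.41 in those of paradigm 3. All ZT0 pools were above all ZT14 pools, and the 4 ZT14 pools lay close together. The difference was 0.87 ± 0.17 (limma adjusted p = 0.00416). MRPS7 stood at 0.21, 0.00, 0.19 and 0.41 at ZT0, at -0.25 and -0.20 in paradigm 2 and at -1.10 and -0.82 in paradigm 3. Its groups were also apart, with the paradigm 3 pools far below the rest, and it rose by 0.79 ± 0.15 (limma adjusted p = 0.00425). MRPL3, a conserved protein that reaches towards the peptidyl transferase centre, stood at -0.06, 0.07, 0.58 and 0.27 at ZT0, at -0.19 and -0.11 in paradigm 2 and at -1.10 and -1.02 in paradigm 3. The paradigm 2 pools fell just below the lowest ZT0 pool, and the difference was 0.82 ± 0.17 (limma adjusted p = 0.00566).

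MRPS31 and MRPL50, the latter a large-subunit protein found only in mitochondria, overlapped between the times. MRPS31 stood at 0.09, -0.09, -0.07 and -0.03 at ZT0, at -0.06 and -0.22 in paradigm 2 and at -1.69 and -1.01 in paradigm 3. It thus differed from paradigm 3 alone, and its difference was 0.72 ± 0.16 (limma adjusted p = 0.0075). MRPL50 stood at -0.12, -0.04, -0.21 and -0.29 at ZT0, at 0.02 and -0.33 in paradigm 2 and at -1.11 and -1.45 in paradigm 3. The paradigm 2 pools enclosed the ZT0 pools, and the difference of 0.55 ± 0.16 was called at a limma adjusted p of 0.0305, a call that 6 of the 8 single-pool omissions ended.

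The time difference depended on which dark control stood for ZT14. Against paradigm 2 alone, 0 members were called by limma (0.0319% of all genes), and the median was 0.115. There 2 members had an unadjusted p under 0.05, against 1298 of all genes. Against paradigm 3 alone, 10 members were called (34.0% of all genes), with a median of 0.252. Besides the 5 above, these were MRPL16, MRPL24, MRPS2, MRPS11 and MRPS25. MRPS30 differed by 0.84 against paradigm 2 (limma adjusted p = 0.251) and by 0.90 against paradigm 3. The other called members differed less against paradigm 2: MRPS7 by 0.42 and 1.16, MRPL3 by 0.37 and 1.28, and MRPS31 by 0.12 and 1.32. For MRPL50 the difference against paradigm 2 was -0.01, against 1.11 for paradigm 3. When only the ZT0 pools of the earlier array numbers were used, 0 members were called, and the 5 adjusted p-values lay between 0.0591 and 0.0703. The count over all genes in that fit is not given here, so this loss is not read as particular to the members. Time of day and paradigm cannot be told apart here, since each paradigm was sampled at a single time. Among 4 pineal markers TPH1, of the serotonin pathway that feeds melatonin synthesis, was called as lower at ZT0 (-0.51 ± 0.16). The other 3 had differences above 0, and the median over the 4 was 0.203. Of the 17 markers of other cells 0 were called by limma, with 2 unadjusted p-values under 0.05. The mean pineal marker ratio ran from -0.561 to -0.0119 at ZT0 and from -0.604 to -0.0947 at ZT14.

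**Figure D4:**
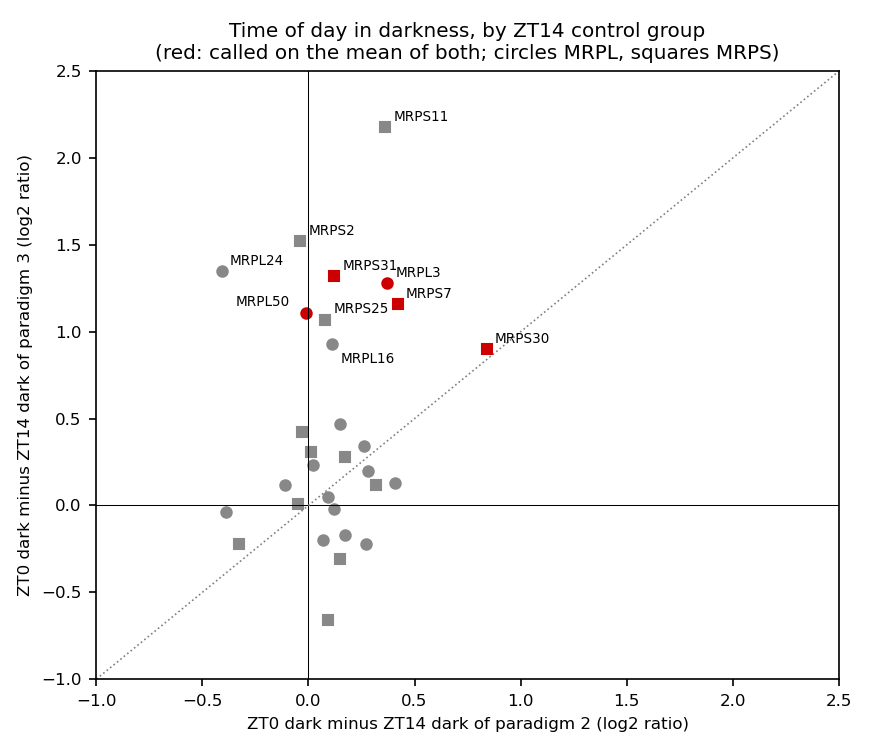
Difference in log2 ratio between ZT0 and ZT14 in darkness for each of the 30 genes, with the paradigm 2 controls (x axis) or the paradigm 3 controls (y axis) as ZT14. Of the 5 genes called on the mean of both (red), only MRPS30 has nearly the same value on both axes, 0.84 and 0.90.

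With light at both times, 2 of 30 members were called as higher at ZT0, MRPL3 and MRPS7. Of all 12532 genes 11.7% were called in either direction, 672 of them as higher and 796 as lower. MRPL3 stood at 0.39, 0.02, 0.32 and 0.72 after late-night light, at -0.12 and -0.07 after early-night light and at -0.65 and -0.78 in the long day. All ZT0 pools lay above all ZT14 pools, and the difference was 0.76 ± 0.17 (limma adjusted p = 0.0139). MRPS7 stood at 0.24, 0.16, 0.06 and 0.49 after late-night light, at -0.36 and -0.05 after early-night light and at -0.67 and -0.24 in the long day. It rose by 0.57 ± 0.15 (limma adjusted p = 0.0326) with no overlap, a call that was lost on leaving out any of 5 single pools. With early-night light alone as ZT14, 0 members were called by limma (0.0878% of all genes). There 3 members had an unadjusted p under 0.05, against 1186 of all genes. With the long day alone 9 members were called (27.0% of all genes), of which MRPS9 was lower (-0.84). In this comparison 1 of 2 erythroid markers (HBBA, -1.44 ± 0.25) was called as lower, while the other, not called, was higher by 0.34. Of 4 pineal markers TPH1 was called as lower (-0.64 ± 0.16) and NEUROD1 as higher (1.70 ± 0.29). The mean erythroid ratio ran from -0.885 to -0.146 after late-night light and from -0.361 to 0.894 in the light pools at ZT14, and the pineal mean from -0.255 to 0.0474 and from -0.665 to 0.186.

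The ZT14 dark controls of paradigms 2 and 3, which the labels describe alike, were therefore compared directly. Lower ratios in paradigm 3 were called in 8 members and higher ratios in 0, while 20.6% of all genes were called, 9.4% as lower. The called members were MRPL3, MRPL16, MRPL24, MRPL50, MRPS2, MRPS7, MRPS25 and MRPS31. The median difference over all 30 was -0.156, beside 0.0424 for all genes. Ratios below 0 on all 4 paradigm 3 arrays were found for 11 of 30 members (36.7%) and for 20.5% of all genes. In 4 members, MRPL3, MRPL50, MRPS2 and MRPS25, those 4 arrays all lay below the other 12 arrays, as in 8.0% of all genes (1002). In 1 member, MRPS18C, they all lay above the other 12 arrays, as in 1172 of all genes.

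Among these genes MRPL24, next to the exit of the peptide tunnel, stood at -1.35 and -1.50 in the paradigm 3 dark pools and at 0.09 and 0.59 in those of paradigm 2, and it fell by 1.77 (SE 0.47). MRPS2 stood at -2.54 and -0.85 against -0.08 and -0.21, and it fell by 1.55 (SE 0.50). Without paradigm 3 dark pool 3 the MRPS2 difference was -0.71, and without pool 4 it was -2.40. Both were also below 0 in the long-day pools, at -1.11 and -1.20 for MRPL24 and at -0.73 and -2.14 for MRPS2. MRPS31 fell by 1.21 (SE 0.22), MRPL50 by 1.12 (SE 0.23), MRPS25 by 0.99 (SE 0.28, with a difference of -0.63 without paradigm 3 dark pool 3), MRPL3 by 0.91 (SE 0.24), MRPL16 by 0.82 (SE 0.26) and MRPS7 by 0.74 (SE 0.22). Among the 8, MRPS31 had the highest mean ratio in the long-day pools. After quantile normalization or scaling of each array to the same SD, 0 of the 8 calls were left, and with array weights there were 2. Leaving out a single pool left between 2 calls (without the second paradigm 2 pool) and 9 (without paradigm 3 pool 4), and only the calls of MRPS31 and MRPL50 were kept under all 4 omissions. Counts over all genes under these settings are not given here, so the lost calls are not read as particular to the members. The erythroid marker HBBA was also called as lower in paradigm 3 (-1.23 ± 0.35), with mean erythroid ratios of 0.109 and -0.635 there and of 0.966 and 0.0661 in paradigm 2.

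Probes for the same gene did not always move together. Of the 5 members with several probes, MRPS7 had a probe (C0004124_A18) that ran from -1.97 to 0.97 over the 16 arrays (SD 0.827) and another (C0004125_D7) that ran from -0.30 to 0.16 (SD 0.126). The ZT0 minus ZT14 difference in darkness was 1.47 ± 0.25 for the first (limma adjusted p = 0.00216 over probes) and 0.12 ± 0.12 for the second. After light the ZT0 minus ZT14 difference was 1.12 ± 0.25 for the first and 0.02 ± 0.12 for the second. Both time differences of MRPS7 thus came from 1 of its 2 probes. MRPS25 was alike in darkness, with 1.34 ± 0.28 for C0004120_L7 (limma adjusted p = 0.00645) and -0.19 ± 0.18 for Pat_10f2.

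For MRPS31 both probes differed in the same direction in the long day. Its long-day difference was 1.39 ± 0.35 for C0004128_A21 (limma adjusted p = 0.0496) and 1.00 ± 0.27 for DT40subNB_5C2 (limma adjusted p = 0.0647). The first stood at -1.09 and -0.21 in the long day and at -2.66 and -1.42 in darkness, and the second at 0.82 and -0.12 against -0.72 and -0.59. In each probe both long-day pools lay above both dark pools. The ZT0 minus ZT14 difference in darkness was 1.10 ± 0.25 for the first (limma adjusted p = 0.00947) and 0.34 ± 0.19 for the second (limma adjusted p = 0.259). After light it was 0.91 ± 0.25 and -0.04 ± 0.19. For MRPL50 the time difference was 0.17 ± 0.32 on C0004107_L22 and 0.93 ± 0.25 on C0004130_E17. Of the 4 MRPS27 probes, 1 reached -2.41 on a paradigm 3 dark pool, where the other three lay between -0.34 and 0.11. Whether probes of 1 symbol bind the same transcript was not tested, and no probe sequences were used here.

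**Figure D5:**
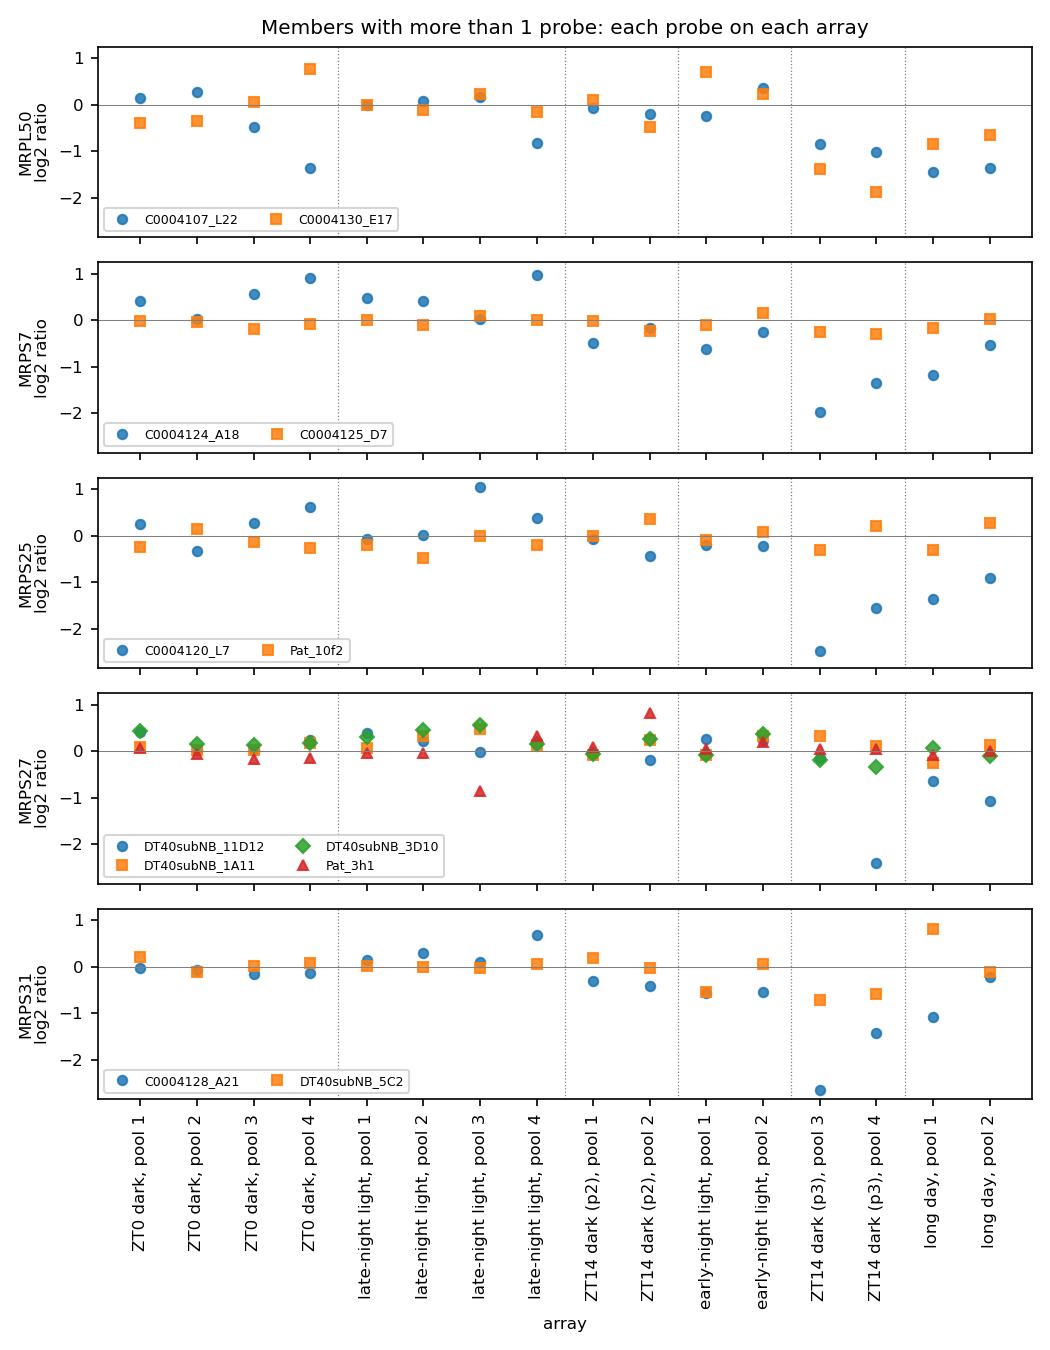
Log2 ratio of each probe on each of the 16 arrays for the 5 genes with more than 1 probe, 1 panel per gene. In MRPS7 and MRPS25 a single probe carries the low values of the paradigm 3 arrays (down to -1.97 and -2.47) while the other stays within -0.30 and 0.16 and within -0.47 and 0.36.

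Genes that work with the mitochondrial ribosome were read from lists of other ribosome proteins (4 of 6 measured), translation factors (6 of 16), assembly factors (11 of 27), transfer RNA synthetases and amidotransferase (9 of 24) and mitochondrial DNA expression (6 of 16). After late-night and early-night light 0 of these 36 genes were called by limma, with 2 and 0 unadjusted p-values under 0.05. In the long day MTIF2, the initiation factor that brings the initiator transfer RNA to the small subunit, was higher by 1.66 ± 0.35 (limma adjusted p = 0.0244). GATC, a subunit of the amidotransferase that completes glutaminyl transfer RNA, was higher by 1.64 ± 0.28 (limma adjusted p = 0.00825). The other 34 were not called there, where 2.94% of all genes were.

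Between ZT0 and ZT14 in darkness, 6 of the 36 were called as higher and 1 as lower, beside 19.0% of all genes called and 8.61% called as higher. The largest rises were those of GATC (1.83 ± 0.19) and MTIF2 (1.64 ± 0.25), followed by CARS2, which charges the mitochondrial transfer RNA for cysteine (0.88 ± 0.25), and GFM2, which splits mitochondrial ribosomes after termination (0.83 ± 0.23). ERAL1, a chaperone of the small-subunit ribosomal RNA, rose by 0.56 ± 0.18 and HSD17B10, a subunit of the mitochondrial RNase P, by 0.44 ± 0.11. MTPAP, the mitochondrial poly(A) polymerase, was lower (-2.14 ± 0.61). ZT14 was again the mean of both dark groups, and no split by group is given for these genes. As with the members, the ZT14 dark pools of paradigm 3 differed from those of paradigm 2: MTIF2 fell by 2.61 (SE 0.35) and GATC fell by 2.12 (SE 0.28). With these, 8 of the 36 were called as lower and 5 as higher in paradigm 3, beside 20.6% of all genes called and 9.4% called as lower.

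The members were set beside the cytosolic ribosomal proteins (36 genes) and the respiratory chain and ATP synthase subunits (33 genes) in the same comparisons; no test between lists was made. Median time differences in darkness were 0.221 for the members, 0.22 for the cytosolic ribosomal proteins and 0.242 for the respiratory subunits, with 5, 8 and 7 calls. In the long day the medians were 0.212, 0.057 and 0.21, with 1, 1 and 0 calls. After late-night light they were -0.0128, -0.113 and -0.063, and 14 of 30, 7 of 36 and 11 of 33 genes lay above 0, with 0 calls in each. After late-night light 0 of the 17 markers of other cells were called by limma, as were 0 of all genes. An unadjusted p under 0.05 was found for 6 of the 17 markers, a larger share than the 527 of 12532 over all genes. Among the 17, 0 of 6 macrophage and 2 of 7 lymphoid markers lay above 0 (medians -0.1 and -0.141). So did 0 of 2 erythroid and 2 of 2 choroid plexus markers (medians -0.597 and 0.639). Mean lymphoid marker ratios were -0.0337 to 0.041 in the light pools and -0.0293 to 0.752 in the dark pools, and their part in the members' differences was not tested.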

How the data were processed

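Values were the log ratios of the 2 channels deposited by the authors for each probe and array, with the pineal pool in the Cy3 channel and the common reference in the Cy5 channel per the labels. How they corrected background and normalized arrays is not given in the sources used here. Since no log base is named either, the deposited ratios were taken as log2. Of 15769 probes, 160 control spots were left out. Probes were named from the platform's annotation, 9628 with 1 symbol and 5981 with none, and averaged by symbol; 29 of the 30 members had their gene ID in a RefSeq gene table, and 0 had another current symbol. A probe without a symbol was kept as a gene of its own. Of 12691 genes counted in this way, 12532 were kept, those measured on 2 or more arrays in each group. No column of the table was unused (0 per-sample columns).

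A model with a mean for each of the 6 groups was fitted over all 16 arrays and all genes (limma 3.58.1, R 4.3.3), with 10 residual and 3.33 prior degrees of freedom, and calls were made at a Benjamini-Hochberg adjusted p under 0.05. The fit was tested on simulated data. Python 3.11.15 with pandas 2.3.3 made the summaries, and matplotlib 3.10.9 drew the plots. Without intensities the signal over background is unknown. Precision is limited by the number of arrays. Pools hold different glands, and p-values measure the spread between pools.

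The members and gene lists were chosen with earlier results of these data known. Genes named are those called in a comparison, the 5 members with the smallest p in each light comparison and in the time comparison, members whose probes differed most, the highest and lowest mean in each group, and up to 4 called genes of each related list. Alternatives were array weights, a trended robust prior, fits of the compared arrays alone, quantile normalization, scaling of arrays, no filter on missing values, single probes, subunits by structure, array series, a replicate block, single ZT14 groups and leaving out each pool. The fit without the paradigm 3 arrays and the single light groups at ZT14 were added after seeing the data. Protein and promoter sequences were not used here.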

Additional observations from a re-analysis of the deposited data

Results flagged for a closer look

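In the groups of 4 pools, 1 pool lay far from the other three in 12 of the 60 combinations of a gene and a group examined. There its gap to the nearest pool, divided by the range of the 4 pools, exceeded the 95% critical value of Dixon's test for 4 samples. For independent, normally distributed values chance gives this in about 1 in 20. The genes were read on the same arrays, so the 60 are not independent, and the share over all genes is not given here. The 12 values are thus not read as a trait of the members. In darkness at ZT0, pool 4 held 3 of these values: MRPL16 at 0.40 (others 0.03 to 0.08), MRPL28 at -0.55 (others 0.15 to 0.17) and MRPS18C at -0.09 (others -0.01 to 0.00). Pool 3 of that group held MRPL58 at -0.21 (others 0.19 to 0.26), MRPS2 at -0.68 (others -0.07 to 0.03) and MRPS26 at 0.82 (others -0.08 to 0.00). After late-night light, pool 3 held MRPL30 at -0.86 (others -0.13 to -0.01), MRPS10 at -0.31 (others 0.13 to 0.19), MRPS18C at -0.85 (others -0.05 to 0.08) and MRPS36 at -0.63 (others -0.08 to 0.00). Pool 1 of that group held MRPL53 at -0.24 (others 0.01 to 0.05) and MRPS11 at -3.04 (others 0.10 to 0.45), the widest gap of the 12 in log2 units. The MRPS18C value in darkness is within 0.09 of 0 and stands out because the other three pools were nearly equal.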

How the results depend on the processing

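Members called stayed at 0 after late-night and early-night light and for the difference of these effects under each alternative run, including the replicate block (0, 0 and 0) and each pool left out. Same-numbered pools of paradigm 1 correlated at 0.308, 0.19, -0.000165 and 0.309 and those of paradigm 2 at 0.12, and not each pool correlated best with its own number, so the numbers were not taken to pair the samples. Long-day calls (1) became 0 with array weights, the compared arrays alone, quantile normalization or scaling, and 1 to 3 with a pool left out, 3 without dark pool 4 and 2 without light pool 1. Time calls in darkness (5) became 2 after quantile normalization, 2 after scaling, 0 with the earlier array series at ZT0, 0 with paradigm 2 alone or without the paradigm 3 arrays, 10 with paradigm 3 alone, and 4 to 7 with a pool left out. Time calls after light (2) became 1 on the compared arrays alone, 4 with single probes, 0 with early-night light alone or without paradigm 3, 9 with the long day alone, and 1 to 4 with a pool left out (4 without long-day pool 2). Calls between the ZT14 dark groups (8) became 2 with array weights, 0 on the compared arrays alone, after quantile normalization or after scaling, and 2 to 9 with a pool left out. Without paradigm 3 dark pool 4, calls rose from 0 to 2 for light at ZT14 and from 0 to 1 for the long-day minus early-night effect. Without any other pool they were 0. Except for the single ZT14 groups, counts over all genes under these alternatives are not given here. Changes in the members' calls are thus not read as particular to the members.

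The small-subunit median became -0.0987 after late-night light with scaling. In the long day it became 0.0977 with quantile normalization and 0.148 with scaling. For time in darkness it became 0.458 with scaling, 0.101 with paradigm 2 alone and 0.366 with paradigm 3 alone, and the large-subunit median 0.295 with scaling. With a pool left out, the large and small medians ran from -0.052 to 0.0339 and -0.0664 to 0.0259 (late night), 0.0385 to 0.0876 and -0.0346 to 0.0835 (early night), 0.0447 to 0.224 and 0.111 to 0.31 (long day), and 0.133 to 0.255 and 0.211 to 0.304 (time). MRPL50 between the times in darkness turned to -0.01 with paradigm 2 alone and -0.01 without the paradigm 3 arrays, and MRPL23 after early-night light turned to -0.37 without light pool 2 (1.39 without pool 1). These counts leave out the fits with a pool removed. For the 30 named differences of members under the other alternatives, 180 values kept direction and side of the threshold. A further 59 lost the call with the same direction, and 2 turned, both of MRPL50. Differences not called in the main fit could not lose a call, and all their values counted here are among the 180. Except where samples or arrays were removed, the cause was not tested.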
